A study of Mus musculus with 5 samples.

Results

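Mitochondrial ribosomal protein genes were taken as the gene symbols that begin with Mrpl (large subunit) or Mrps (small subunit) followed by digits, without names carrying -ps. The table of H3K4 peaks from neonatal mouse cardiomyocytes held 60 of them, 36 of the large and 24 of the small subunit, among 25017 gene symbols. Each gene was represented by its highest peak, the one with the largest mean over the 4 H3K4 libraries. A gene was tested when that peak reached 1 CPM (read counts scaled to the library's total in the listed peaks) in 2 of those libraries, and 59 genes did, 35 large and 24 small. Mrpl30 was the gene just outside this rule, at 0.641 and 0.9999 CPM in control and 0.752 and 1.54 CPM in knockdown libraries. The genes just inside it were Mrps28, Mrpl40 and Mrpl49, whose values follow with the other weak peaks.

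The study asked what loss of Kdm5b, a demethylase of histone H3 lysine 4, does to H3K4-marked chromatin in the newborn heart. Cardiomyocytes from postnatal day 1 mouse hearts were treated for 72 h with Control-ShRNA-IL or Kdm5b-ShRNA-IL (the labels do not explain IL), and CUT&RUN, in which a tethered nuclease releases antibody-bound chromatin for sequencing, was run on each. Each treatment gave 2 H3K4 libraries, and the control-treated cells also gave the only negative control, n = 1. The methylation state recognised and the antibody of the negative control are not given in the sources used here. Strain and sex of the mice are not given in the labels used here, and the cell type label numbers the samples P1 to P5 while the growth protocol says P1; were these ages, they could not be told apart from the groups. The labels do not say whether libraries came from separate cultures or animals. The p-values thus stand on the spread among these libraries, which could be technical. With 2 libraries per group, the fit took the spread of each peak largely from peaks of like level. A p-value is therefore not a measure of a gene's own spread. The libraries measure chromatin, not Kdm5b transcript, so the extent of the knockdown is not checked here.

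Mitochondria carry their own ribosome, which translates the few proteins encoded by mitochondrial DNA, all of them core subunits of the respiratory chain and ATP synthase. Its RNAs come from mitochondrial DNA, whereas every one of its proteins is encoded in the nucleus, made in the cytosol and imported. Some of these proteins descend from bacterial ribosomal proteins and others were added in the mitochondrial lineage. The heart depends on oxidative metabolism, and defects in several of these genes cause cardiomyopathy in humans. Methylation of H3K4, in its trimethylated form, marks the start sites of active genes, and the genes described here are expressed in nearly all cell types.

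The H3K4 libraries held 18710132 and 19001373 reads in peaks for control 3 and 4 and 21285387 and 31068085 for knockdown 3 and 4, against 3784381 in the negative control, where 1 read is worth 0.264 CPM. Peaks narrower than 500 bp with less H3K4 than negative control signal took 6.65% and 5.79% of the control reads, 5.62% and 3.64% of the knockdown reads and 21.9% of the negative control's. The labelled cell type was checked on 9 cardiomyocyte marker genes with a peak, whose summed signal was 985 and 991 CPM in control, 892 and 874 CPM in knockdown and 1114 CPM in the negative control. No marker listed for any of 6 cell types reached 2-fold over the negative control, so the signal does not itself show which cells were present. Between groups, 3 cardiomyocyte markers were lower, while 4 of 6 fibroblast, 3 of 4 epicardial and 2 of 3 smooth muscle markers were higher, and 0 of 4 endothelial and 0 of 3 macrophage markers passed (limma, Benjamini-Hochberg adjusted p, threshold 0.05). Over all tested peaks 1.33% were called higher and 1.63% lower. Summed fibroblast signal was 402 and 377 CPM in control and 470 and 469 CPM in knockdown, epicardial 168 and 158 against 205 and 211, and smooth muscle 190 and 178 against 224 and 229. Summed endothelial signal was 143 and 129 CPM against 147 and 151, and macrophage signal 6.09 and 5.16 against 3.66 and 2.64. The negative control had 511 CPM for fibroblast, 449 for epicardial, 147 for smooth muscle, 209 for endothelial and 15.1 for macrophage markers. In control libraries all fibroblast, epicardial, endothelial and macrophage markers lay below it, as did 5 of 9 cardiomyocyte and 1 of 3 smooth muscle markers. The part of these group differences in the results below was not tested, and in bulk chromatin fewer cells of a type and less mark per cell cannot be told apart.

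Most of the family formed a compact group of strong peaks. In 54 of the 60 genes (32 large, 22 small) the highest peak had a mean of 27.2 to 115 CPM over the H3K4 libraries, and in the other 6 it was at most 8.87 CPM, with nothing between. Summed over the 59 tested genes, signal was 2674 and 2830 CPM in control, 2905 and 3020 CPM in knockdown and 1500 CPM in the negative control. The genes had 161 peaks, 114 of them passing the 1 CPM rule. A single peak was listed for 22 genes, and Mrpl48 had the most, 8. Of the 101 peaks that were not a gene's highest, 55 were tested and 54 of these lay below the negative control in control libraries. So did 48019 of all 58072 tested peaks.

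**Figure D1:**
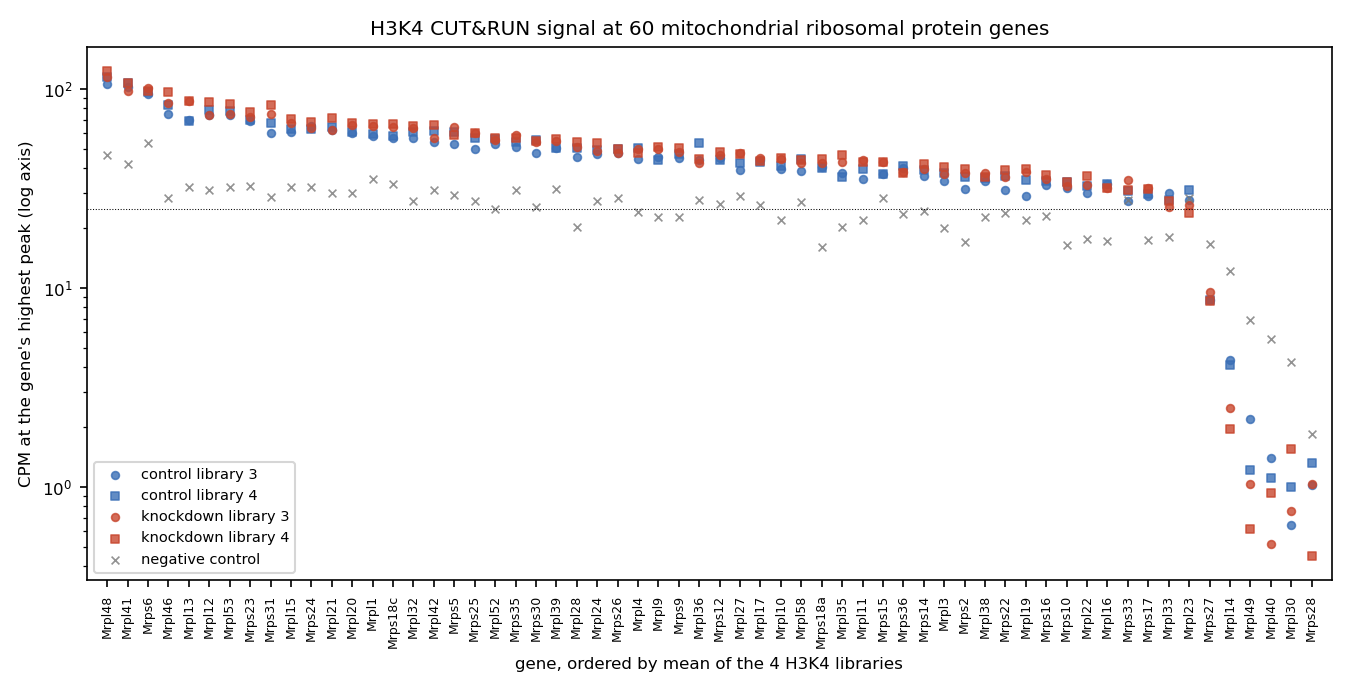
CPM (log axis) at the highest peak of each of the 60 genes in the 5 libraries, ordered by mean H3K4 signal; the dotted line is 25 CPM. The 54 genes on the left lie above the line by their mean and nearly all above their negative control (crosses), and the 6 on the right lie below both.

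The largest totals belonged to Mrpl48 (chr7:100255672-100259919, build GRCm39, as are all peaks below), Mrpl41 (chr2:24863162-24867151) and Mrps6 (chr16:91853360-91858790). Mrpl48 had 106 and 115 CPM in control, 115 and 123 in knockdown and 46.8 in the negative control. Mrpl41 had 102 and 107 CPM in control, 98.0 and 107 in knockdown and 42.0 in the negative control. Both encode proteins of the large subunit added in the mitochondrial lineage. For neither gene were the groups separate. Mrps6, a small subunit protein with a bacterial counterpart, had 94.3 and 96.5 CPM in control, 101 and 97.8 in knockdown and 53.4 in the negative control, both knockdown libraries lying above both control libraries by little (log2 fold change 0.06, SE 0.06, limma adjusted p = 0.634).

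These totals followed peak width. Over the 59 tested genes mean CPM and width had Pearson's r = 0.864 and Spearman's rho = 0.775, a description only, since a wider peak collects more reads in every library, and H3K4 signal followed the negative control as well (r = 0.887, rho = 0.839). Per kb of peak, Mrpl46 was the densest of the 60 at 29.8 CPM per kb in control, followed by Mrps31 at 27.4, Mrpl41 at 26.2, Mrpl42 at 26.1 and Mrpl48 at 26.0, while the wide Mrps6 peak had 17.6 CPM per kb. The median was 19.9 CPM per kb for large and 18.7 for small subunit genes.

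Mrpl46 (chr7:78431346-78434003), a mitochondria-specific protein of the large subunit, stood highest over the negative control. It had 74.8 and 83.4 CPM in control, 84.6 and 96.7 in knockdown, and 28.3 in the negative control, whose 107 reads have an exact 95% Poisson interval of 23.2 to 34.2 CPM (counting error only, as for all intervals here). Control signal was thus 2.80-fold the negative control. Both knockdown libraries were above both control libraries, the log2 difference being 0.19 (SE 0.06, adjusted p = 0.0520 in the limma fit), which missed the threshold of 0.05. The start of Mrpl46 lies back to back with that of Mrps11, a small subunit gene not analysed here, so this peak stands beside the starts of both. Its promoter, the 300 bases from 250 before to 50 after the start in RefSeq (GRCm38.p6, chr7:78783040-78783339, reverse strand), is shown for that reason; the peaks are in another build, so windows and peaks were matched by gene name and not by position.

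Mrpl46: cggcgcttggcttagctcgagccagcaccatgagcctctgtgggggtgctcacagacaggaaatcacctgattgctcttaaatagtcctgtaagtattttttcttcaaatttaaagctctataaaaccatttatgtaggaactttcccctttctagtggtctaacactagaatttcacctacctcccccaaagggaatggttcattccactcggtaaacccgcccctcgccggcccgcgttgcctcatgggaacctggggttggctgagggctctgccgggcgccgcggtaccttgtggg

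Against the negative control the family's signal was moderate, and the counts depend on how the libraries are scaled. In control libraries 13 of 59 genes (22.0%) lay at least 2-fold above it, on the log2(CPM + 1) scale, where 5.55% of all 58072 tested peaks did. In knockdown libraries it was 23 of 59 (39.0%), against 6.81% of all tested peaks. These backgrounds are mostly weaker peaks: among the highest peaks of all genes within the same height range, 27.2 to 115 CPM (8316 genes), 24.4% passed in control and 32.1% in knockdown. The median log2 ratio in control was 0.82 for the family, 0.74 in that height range, and -1.12 over all tested peaks. A single negative control library allows no test. With TMM scaling in place of library totals 54 of 59 genes passed and the median was 2.06. The shares over all tested peaks and in the height range were not computed with TMM. The 54 genes can therefore not be set against a background.

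Besides Mrpl46 the highest control ratios on the log2(CPM + 1) scale were those of Mrpl41, Mrpl12, Mrps18a and Mrpl48; the folds below are ratios of plain CPM. Mrps18a (chr17:46421334-46423008), which despite its symbol sits in the large subunit, had 40.4 and 40.05 CPM in control, 42.3 and 44.3 in knockdown and 16.1 in the negative control, a 2.50-fold ratio from a peak of middling height. Mrpl12 (chr11:120374605-120377932), a stalk protein that has been reported in human cells to bind mitochondrial RNA polymerase, had 73.8 and 78.3 CPM in control, 73.8 and 85.8 in knockdown and 30.9 in the negative control, a 2.46-fold ratio. For Mrpl12 the knockdown values straddled those of control (log2 fold change 0.06, SE 0.06, limma adjusted p = 0.623). In all, 52 of 59 genes had a control mean above the upper bound of the negative control's 95% interval. These were 52 of the 54 strong genes, against 6823 of 8316 genes in the height range and 8938 of 58072 tested peaks. The genes below the negative control numbered 5 in control and 6 in knockdown libraries. Among the 54 strong genes these counts were 0 and 1, against 969 and 944 of the 8316 genes in the height range. Over all 58072 tested peaks they were 48019 and 48030.

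Across the knockdown, 4 genes had higher H3K4 signal and none had lower. Mrpl13, Mrps31, Mrpl19 and Mrpl35 rose by 0.27 to 0.32 on the log2 scale, with Mrpl35 at 1.21-fold (limma on log2(CPM + 1), Benjamini-Hochberg adjusted over 58072 peaks, threshold 0.05). They are 4 of 59 genes, against 1.33% of all tested peaks called higher and 1.63% called lower. All 4 are among the 54 strong genes, where they make 7.41%, near the 5.56% of genes called higher in the same height range. At an unadjusted p under 0.05, 16 genes were higher and 3 lower. Over all 58072 tested peaks these counts were 2869 and 6784, and over the 8316 genes of the height range 1860 and 464.

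Mrpl13 (chr15:55419002-55422412) encodes a large subunit protein of bacterial type. It had 69.5 and 69.2 CPM in control and 87.0 and 86.7 in knockdown, with 32.2 in the negative control. The pairs lay far apart relative to their own spread, 69.3 ± 0.232 against 86.9 ± 0.186 CPM (SD, n = 2 each). This is a rise of 0.32 on the log2 scale (SE 0.06, adjusted p = 0.000154 in the limma fit). That SE followed peak level more than the gene's own pairs. Mrpl12, of like level but with SDs of 3.18 and 8.54 CPM, also had an SE of 0.06. Without the trend on mean level no member was called higher. Mrpl13 was the member whose call held most often, in 18 of 23 alternative settings.

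Mrps31 (chr8:22900544-22902866) encodes a mitochondria-specific small subunit protein. It had 59.8 and 67.5 CPM in control and 74.6 and 82.6 in knockdown, with 28.5 in the negative control. Both knockdown libraries were above both control libraries, the log2 difference being 0.30 (SE 0.07, adjusted p = 0.000877 in the limma fit). Its promoter window (chr8:22411090-22411389, GRCm38.p6, forward strand) is shown as the strongest riser with a sequence in the table used.

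Mrps31: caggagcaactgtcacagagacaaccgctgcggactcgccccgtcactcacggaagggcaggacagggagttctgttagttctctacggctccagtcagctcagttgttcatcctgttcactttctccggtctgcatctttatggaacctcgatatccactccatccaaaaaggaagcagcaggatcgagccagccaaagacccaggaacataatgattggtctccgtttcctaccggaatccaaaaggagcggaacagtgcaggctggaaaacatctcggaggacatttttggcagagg

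Mrpl35 (chr6:71799349-71801483) and Mrpl19 (chr6:81941475-81943440) both encode large subunit proteins of bacterial type. Mrpl35 had 37.8 and 36.2 CPM in control and 43.1 and 46.7 in knockdown, with 20.3 in the negative control (log2 fold change 0.27, SE 0.08, limma adjusted p = 0.0317). Mrpl19 had 29.1 and 35.0 CPM in control and 38.2 and 39.7 in knockdown, with 21.9 in the negative control (log2 fold change 0.28, SE 0.08, limma adjusted p = 0.0371). In each gene both knockdown libraries lay above both control libraries, and the control pair of Mrpl19 was the more scattered, 32.0 ± 4.19 CPM (SD, n = 2). The Mrpl35 window (chr6:71823735-71824034, GRCm38.p6, reverse strand) carries 2 matches to the YY1 motif AAGATGG just after the start, in opposite orientations, in capitals.

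Mrpl35: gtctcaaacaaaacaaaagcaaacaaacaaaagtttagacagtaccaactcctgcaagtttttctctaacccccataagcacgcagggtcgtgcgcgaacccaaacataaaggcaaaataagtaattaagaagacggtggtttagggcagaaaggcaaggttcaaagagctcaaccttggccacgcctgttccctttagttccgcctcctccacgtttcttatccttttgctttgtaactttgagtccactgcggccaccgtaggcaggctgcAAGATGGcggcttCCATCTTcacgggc

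The 4 calls depend on the scaling and on single libraries to different degrees. All 4 held with loess normalization, and with quantile normalization 3 did, Mrpl35 being lost (adjusted p = 0.0592). With TMM scaling, median centring or DESeq2 no member passed, although each of the 4 then had a larger fold change; for Mrpl13 the adjusted p was 0.149, 0.642 and 0.318 in turn, and the peaks called over the whole table fell from 773 higher and 947 lower to 55 and 34, 28 and 3, and 16 and 3. Mrpl13 kept its call with any 1 library left out (adjusted p from 0.00876 to 0.0179). Without control 3, and equally without knockdown 4, no other member passed; Mrps31 then had an adjusted p of 0.243 and 0.252, Mrpl35 of 0.126 and 0.532, and Mrpl19 of 0.746 and 0.425. Without control 4 Mrpl35 was lost (adjusted p = 0.199) and Mrpl46 passed (0.0338), and without knockdown 3 both Mrpl19 (0.129) and Mrpl35 (0.0737) were lost and Mrpl46 passed (0.0241).

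Below the threshold, values leaned upward across the strong genes. Of 59 fold changes 48 were positive, with a median log2 fold change of 0.10 (quartiles 0.04 and 0.15), a 1.07-fold difference. Both knockdown libraries lay above both control libraries in 31 genes (52.5%), against 12.1% of all tested peaks, and below them in 7 (11.9%), against 35.4%. Strong peaks of other genes leaned the same way: in the same height range the median was 0.06, 71.0% of genes were positive and 43.1% had separate, higher knockdown values. The median over all tested peaks was -0.14. The sign of a single small value therefore depends on the scaling: median centring moved the median of all peaks by 0.24 and TMM by 0.07. The family's median less that of all peaks, which are mostly weaker, was 0.24 with library totals, 0.27 with TMM, 0.05 with quantile normalization and 0.07 with loess. The median of the strong genes less that of the same height range varied less, at 0.043, 0.042, 0.055 and 0.070 in turn.

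**Figure D2:**
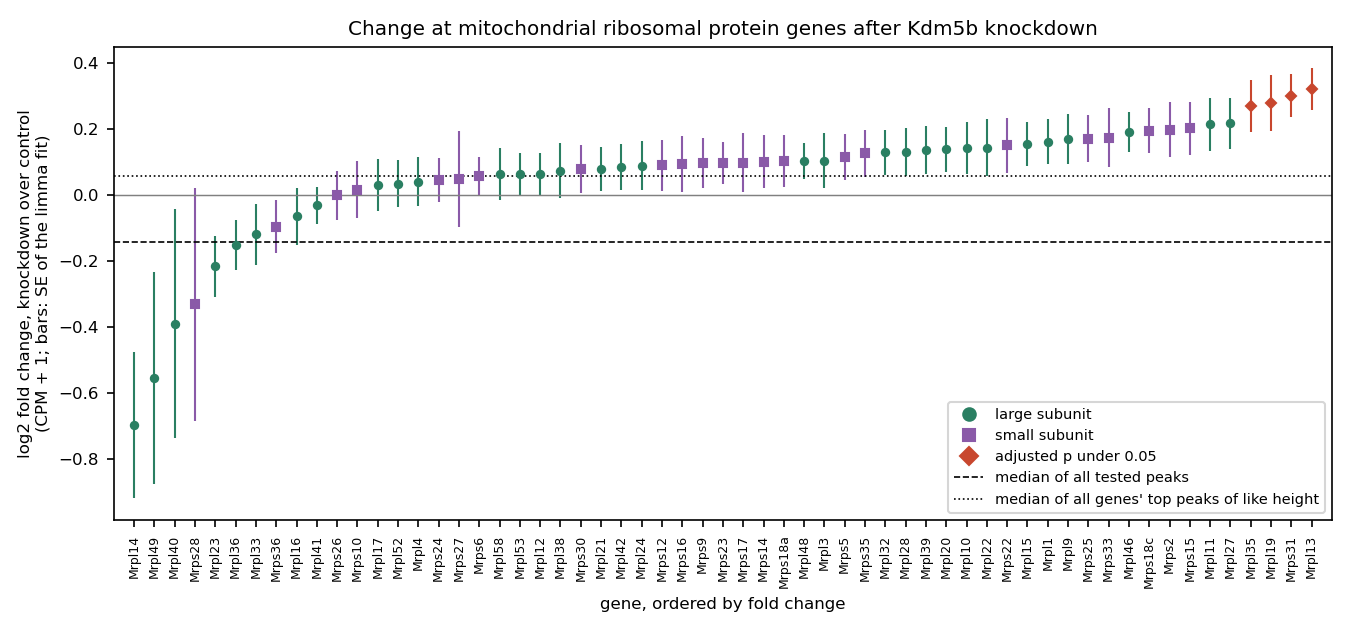
Log2 fold change (knockdown over control, CPM + 1) of the 59 tested genes in order, with the SE of the limma fit as bars. The 4 diamonds on the right passed an adjusted p of 0.05; most other genes lie between 0 and 0.22, above the median of all tested peaks (dashed, -0.14) and about the median of genes of the same height range (dotted, 0.06).

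Mrpl27, counterpart of a bacterial protein near the peptidyl transferase centre, had the next largest difference, 39.0 and 42.4 CPM in control and 47.9 and 47.1 in knockdown (log2 fold change 0.22, SE 0.08, limma adjusted p = 0.103). Among small subunit genes, Mrps18c had 56.6 and 57.9 CPM against 64.6 and 66.9 (0.20, limma adjusted p = 0.0960) and Mrps2 31.3 and 36.05 against 37.9 and 39.5 (0.20, adjusted p = 0.196). In these 3 genes the groups were separate and no call was made. Mrps5, Mrps22, Mrps30, Mrpl3 and Mrpl58 had overlapping groups. Mrps22, mutated in human mitochondrial disease, had 31.1 and 36.6 CPM against 36.0 and 39.1, and Mrpl58, which releases peptides from stalled ribosomes, had 38.6 and 44.2 CPM against 42.7 and 43.8.

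Mrps12 and Mrps14, whose bacterial counterparts belong to the body and head of the small subunit, each had both knockdown values slightly above control. Mrps12 had 44.9 and 44.2 CPM against 46.6 and 48.4, and Mrps14 had 36.6 and 38.9 CPM against 39.5 and 41.8, with adjusted p of 0.558 and 0.529 in the limma fit. Mrps36, named as a ribosomal protein but since assigned to the alpha-ketoglutarate dehydrogenase complex, went the other way with 40.1 and 41.1 CPM in control and 38.2 and 37.7 in knockdown (log2 fold change -0.09, SE 0.08, adjusted p = 0.564), a sign that turned with TMM, median centring and DESeq2.

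Mrpl23 (chr7:142086072-142088946), counterpart of a bacterial protein at the exit of the peptide tunnel, was the strong gene with the most negative value. It had 27.6 and 30.9 CPM in control, 26.2 and 23.9 in knockdown and 28.3 in the negative control, inside whose interval of 23.2 to 34.2 CPM all 4 H3K4 values lay. At 10.2 CPM per kb in control and 9.84 in the negative control it was a wide peak without enrichment. Its log2 fold change of -0.22 had an SE of 0.09 (adjusted p = 0.211 in the limma fit), and its sign turned with median centring.

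**Figure D3:**
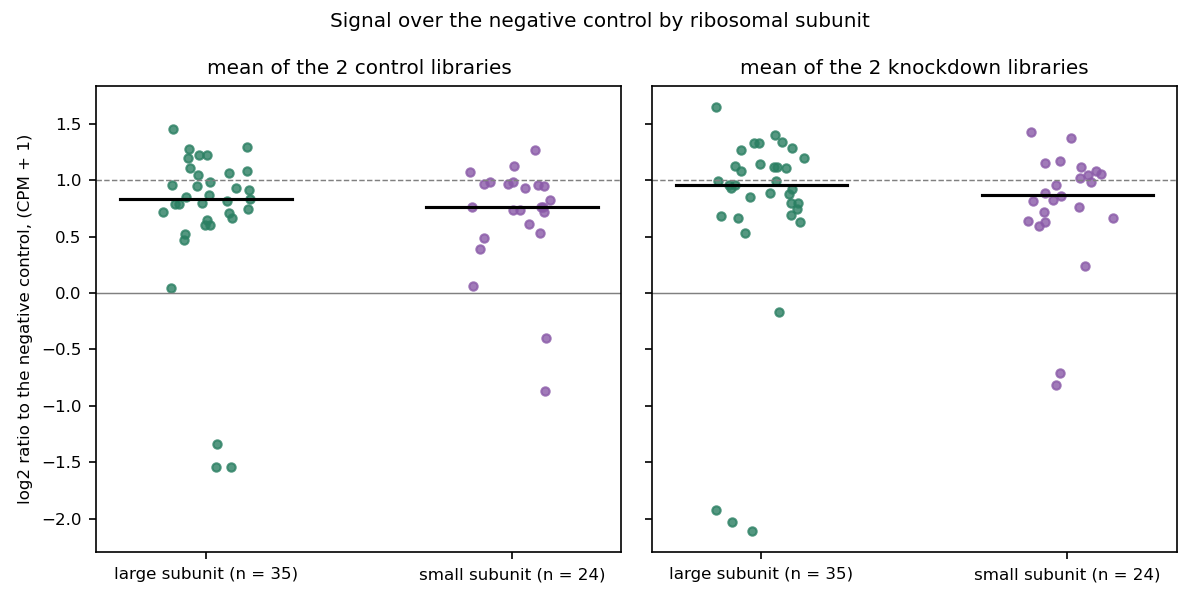
Log2 ratio to the negative control (CPM + 1) for the 35 large and 24 small subunit genes, in control (left) and knockdown libraries (right); each point is a gene, bars are medians and the dashed line is a 2-fold ratio. The medians of the subunits are 0.83 and 0.76 in control, and the points below 0 are the weak peaks, with Mrpl23 among them in knockdown.

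The large and small subunits differed little. Of 35 large subunit genes 3 were called higher (Mrpl13, Mrpl19, Mrpl35) and 27 were positive, and of 24 small subunit genes 1 was (Mrps31) and 21 were positive, with median log2 fold changes of 0.09 and 0.10. The median log2 ratio to the negative control was 0.83 and 0.76, and 10 large against 3 small subunit genes were at least 2-fold above it in control, 14 against 9 in knockdown. Median level was 44.7 CPM (large) and 42.6 CPM (small) in control 3, 49.1 and 42.6 in control 4, 48.7 and 44.8 in knockdown 3, 47.8 and 46.3 in knockdown 4, and 26.95 and 26.0 in the negative control. On the log2 scale the large subunit's median was higher by 0.14 over the control mean, by 0.07 in control 3 and 0.20 in control 4, so the difference varied between the control libraries about as much as its own size. Grouping by place in the ribosome, with Mrps18a and Mrps30 moved to the large subunit and Mrps36 left out (37 against 21 genes), gave a difference of -0.01 in median log2 fold change and 0.09 in ratio, with 0.07 in control level. Genes are not replicates of a subunit, and no test was made.

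Genes grouped by origin had the following values. The 37 genes of bacterial type had 3 called higher, a median log2 fold change of 0.10 and, in control libraries, 5 genes past the 2-fold ratio and 2 genes below the negative control. The 21 mitochondria-specific genes had 1 called higher, a median of 0.08 and 8 genes past the 2-fold ratio (38.1%), with 3 genes below the negative control. Among the 8 were Mrpl46, Mrpl41, Mrpl48, Mrps31 and Mrps18a. Mrps18a was counted as mitochondria-specific and Mrps18c as of bacterial type. Among the strong genes alone, 14.3% of bacterial type and 44.4% of mitochondria-specific genes passed the 2-fold ratio. In the height range 24.4% of genes did, and over all tested peaks 5.55%. The control mean was above the upper bound of the negative control's interval in 34 of 37 and 17 of 21 genes. Among the strong genes alone it was so in 34 of 35 and 17 of 18, and in the height range in 6823 of 8316 genes. The median log2 ratios were 0.82 and 0.87. No test was made between these groups.

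The 6 weak genes were Mrps27, Mrpl14, Mrpl49, Mrpl40, Mrpl30 and Mrps28, each with its highest listed peak below the negative control in all 4 H3K4 libraries. Mrps27, a mitochondria-specific small subunit protein, had 8.66 and 8.74 CPM in control, 9.54 and 8.56 in knockdown and 16.6 in the negative control. Mrpl14, a large subunit protein at the interface of the subunits, had 4.33 and 4.10 CPM in control, 2.49 and 1.96 in knockdown and 12.2, from 46 reads, in the negative control. Its log2 difference, -0.70 (SE 0.22, adjusted p = 0.0542 in the limma fit), was the most negative of the family and was not called. Mrpl49 had 2.19 and 1.21 CPM against 1.03 and 0.612, with 6.87 in the negative control. Mrpl40 had 1.39 and 1.11 CPM against 0.517 and 0.933, with 5.55 in the negative control. In Mrpl14, Mrpl49 and Mrpl40 both knockdown values were below both control values. The same was so in 35.4% of all tested peaks. Among the family's 55 tested peaks that were not a gene's highest it was 45.5%. Mrps28 had 1.02 and 1.32 CPM against 1.03 and 0.451, with 1.85 in the negative control, and overlapped. The median log2 fold change of the 5 tested ones was -0.39. Narrow peaks under the negative control held a smaller share of knockdown than of control reads, as given above, and its part in these values was not tested.

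Each of these genes has a strong peak nearby that the table lists under another gene. The nearest peak of at least 25 CPM belonged to Fau, 1202 bp from the Mrpl49 peak, Tmem63b, 5448 bp from that of Mrpl14, Ptcd2, 7031 bp from that of Mrps27, Mitd1, 8369 bp from that of Mrpl30, Gm52601, 8375 bp from that of Mrps28, and Hira, 14276 bp from that of Mrpl40. In RefSeq, Ptcd2, Tmem63b, Fau, Hira and Mitd1 start back to back with the ribosomal protein gene in question. The Tmem63b peak had 119.3 and 119.5 CPM in control, 120.2 and 126.3 in knockdown and 41.2 in the negative control. The Fau peak had 86.3 and 85.2 CPM in control, 90.7 and 97.0 in knockdown and 42.3 in the negative control, and that of Mitd1 77.6 and 77.3 against 84.1 and 85.8, with 39.1. None of the 6 neighbouring peaks passed the test (limma adjusted p from 0.150 for Ptcd2 to 0.993 for Gm52601). The rule that assigned peaks to genes is not given in the sources used here, so a weak listed peak is not a measure of the start of its gene.

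**Figure D4:**
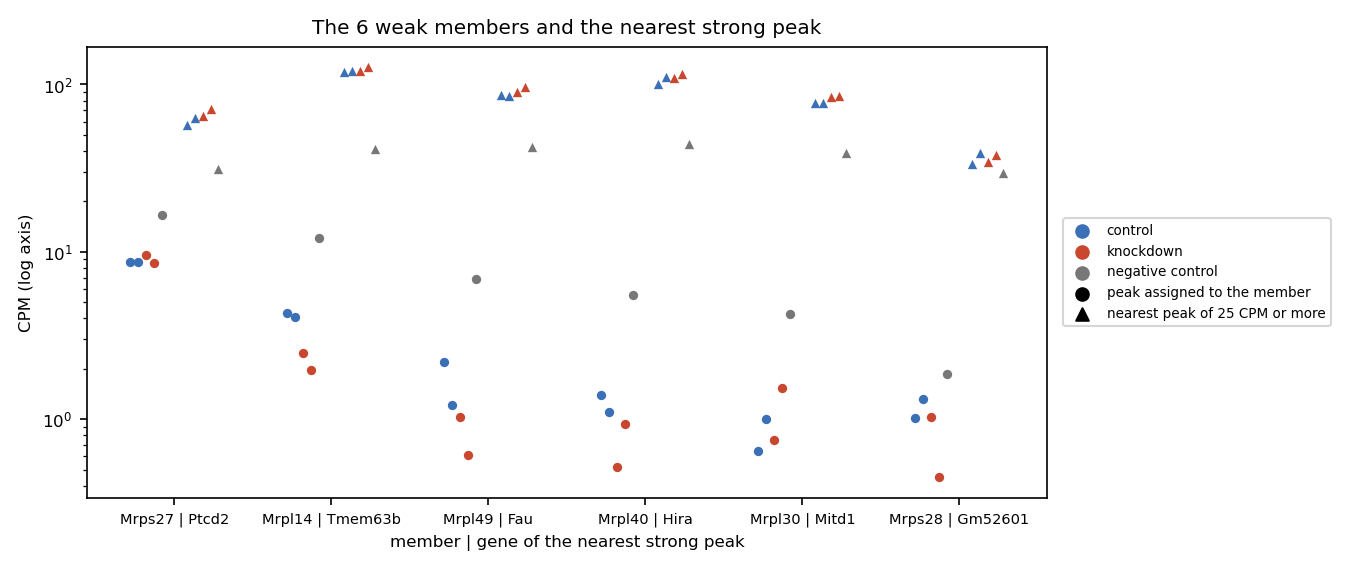
CPM (log axis) at the 6 weak peaks (circles) and at the nearest peak of 25 CPM or more (triangles), by library. Circles lie below the gray negative control and triangles above it, for every gene shown.

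Some, but not all, family members with no row also have a strong peak listed under a back-to-back gene. RefSeq lists 78 symbols of this form, and the 18 without a peak here are not analysed as members. For 10 of them a gene that starts back to back has a peak of at least 25 CPM, and each was uncalled: Tcp1 beside Mrpl18, Klc4 beside Mrpl2, Cyb5rl beside Mrpl37, Ndufb5 beside Mrpl47, Zfp189 beside Mrpl50, Ncapd2 beside Mrpl51, 2610507I01Rik beside Mrpl55, Ska3 beside Mrpl57, Gga3 beside Mrps7 and Mrpl46 beside Mrps11. Of the 54 strong members, 9 likewise share a start region with a back-to-back gene, and a peak there cannot be told apart between its genes.

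Other nuclear genes of mitochondrial translation had a like median change and median ratio. Of 56 tested genes, in lists of ribosomal proteins with other symbols (4), assembly factors (20), translation factors (13), tRNA ligases (14) and mitochondrial transcription and RNA factors (5), 1 was called higher and none lower, 47 were positive and the median log2 fold change was 0.08. By list the medians ran from 0.07 to 0.11. The called gene was Mtif3, the initiation factor that keeps the subunits apart (chr5:146899308-146901053), with 32.1 and 31.5 CPM in control, 39.3 and 39.5 in knockdown and 17.97 in the negative control (log2 fold change 0.30, SE 0.08, limma adjusted p = 0.0197). It lost its call when any 1 of the 4 libraries was left out. The median log2 ratio to the negative control over these 56 genes was 0.81 in control libraries, against 0.82 in the family. More of them were at least 2-fold above it, 37.5% against 22.0% of the family. In the height range it was 43.2% against 24.1%.

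Gadd45gip1, a large subunit protein, had 49.7 and 48.8 CPM in control and 54.5 and 58.2 in knockdown (log2 fold change 0.19, SE 0.07, limma adjusted p = 0.137). Tufm, the elongation factor that delivers tRNA, had 64.8 and 65.7 CPM against 66.9 and 74.4, and Lars2, the leucyl-tRNA ligase, 36.0 and 38.8 against 40.3 and 45.7. Tfam, which packages mitochondrial DNA, had 40.9 and 44.3 CPM against 45.4 and 44.7, and Polrmt, the mitochondrial RNA polymerase, 19.99 and 21.9 against 20.6 and 22.0. None of these 5 passed. The groups were separate upward in all but Polrmt. This was also so in 50% of the 56 tested genes of these lists and 43.1% of genes in the height range. Over all tested peaks it was 12.1%.

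Dap3, a GTP-binding small subunit protein, resembled the weak members with 4.38 and 3.05 CPM in control, 2.77 and 2.41 in knockdown and 10.6 in the negative control. Among cytosolic ribosomal protein genes 1 of 54 was called higher, with a median log2 fold change of 0.07 and a median log2 ratio of 0.99 in control. Among oxidative phosphorylation genes 2 of 77 were, with 0.10 and 0.91. The mitochondrial ribosomal genes' median change was 0.10 and their median ratio 0.82.

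RefSeq promoter windows (GRCm38.p6) were matched to 53 of the 60 genes, 31 large and 22 small. They were CpG-dense (GC of at least 50% and an observed to expected CpG ratio of at least 0.6) in 77.4%, close to the 76.2% of genes in the same height range and above the 36.0% of all 27025 genes of the table. Of 8 motifs searched on both strands, the ETS motif CCGGAAG occurred in 19 genes (35.8%), against 20.6% in the height range and 9.93% of all. YY1 AAGATGG occurred in 18.9% (8.58% and 7.28%) and the NRF1 core GCATGCG in 13.2% (7.90% and 4.01%). The SP/KLF box GGGCGG was found in 45.3%, below the 70.3% of the height range and above the 38.2% of all. CCAAT was at 43.4% (42.4% and 41.1%), the E-box CACGTG at 5.66% (11.7% and 8.09%), the nuclear receptor motif AAGGTCA at 5.66% (3.43% and 5.38%) and TATAAA at 9.43% (8.64% and 15.7%). These are descriptions of letters in a window, with no test, and no statement on binding.

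**Figure D5:**
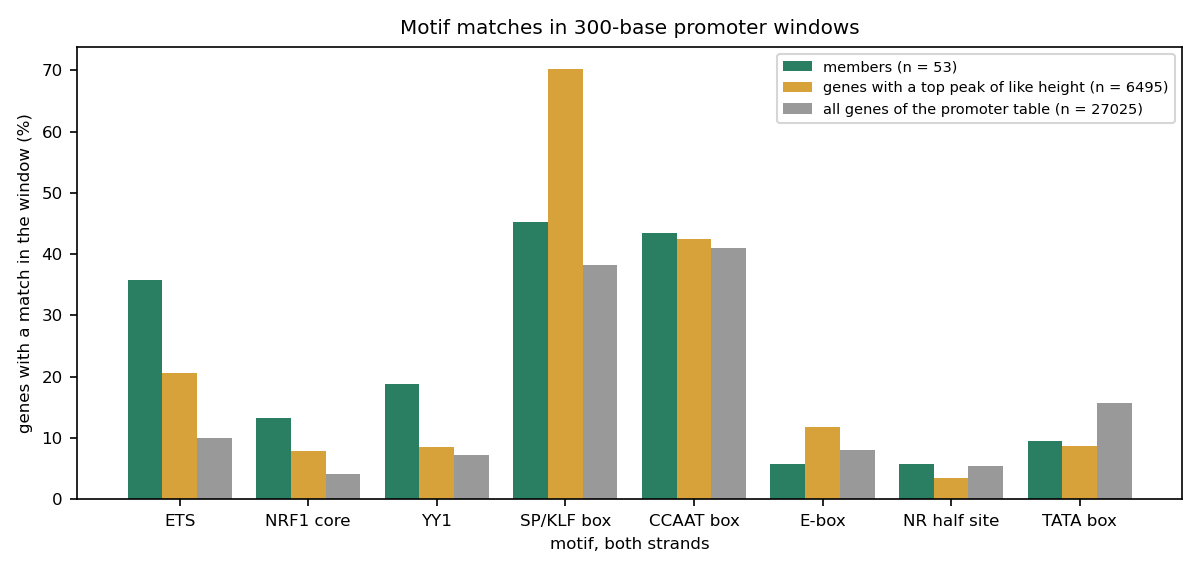
Share of genes (%) with each of 8 motifs in the 300-base promoter window, for 53 mitochondrial ribosomal protein genes, 6495 genes with a top peak of like height and all 27025 genes of the promoter table. ETS, NRF1 core and YY1 stand higher in the members, and the SP/KLF box lower than in the genes of like height.

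NRF1 is a known activator of nuclear genes for mitochondrial proteins, often together with ETS factors. The 7 genes with its core motif were all of the large subunit, 7 of 31 (22.6%) against 0 of 22: Mrpl9, Mrpl10, Mrpl17, Mrpl22, Mrpl32, Mrpl33 and Mrpl39. Other motifs differed between the subunits as well. The SP/KLF box was in 32.3% of large and 63.6% of small subunit genes, and CCAAT in 35.5% and 54.5%. ETS was in 32.3% and 40.9%, and YY1 in 19.4% and 18.2%. No split was tested. The NRF1 and ETS motifs both occurred in Mrpl17 (chr7:105811038-105811337, reverse strand), Mrpl22 (chr11:58171414-58171713, forward) and Mrpl33 (chr5:31613701-31614000, forward), and Mrps18a (chr17:46110754-46111053, forward), high over the negative control, has an ETS and a YY1 match. Their windows are shown with NRF1, ETS and YY1 matches on either strand in capitals; in Mrpl17 and Mrpl22 the palindromic NRF1 stretch matches on both strands, overlapping.

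Mrpl17: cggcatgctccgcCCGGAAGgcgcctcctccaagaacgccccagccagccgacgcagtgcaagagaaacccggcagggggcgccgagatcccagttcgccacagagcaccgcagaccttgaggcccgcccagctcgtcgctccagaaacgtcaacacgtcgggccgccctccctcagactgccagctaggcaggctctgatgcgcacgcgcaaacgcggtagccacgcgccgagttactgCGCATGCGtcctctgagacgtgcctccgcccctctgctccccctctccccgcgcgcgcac
Mrpl22: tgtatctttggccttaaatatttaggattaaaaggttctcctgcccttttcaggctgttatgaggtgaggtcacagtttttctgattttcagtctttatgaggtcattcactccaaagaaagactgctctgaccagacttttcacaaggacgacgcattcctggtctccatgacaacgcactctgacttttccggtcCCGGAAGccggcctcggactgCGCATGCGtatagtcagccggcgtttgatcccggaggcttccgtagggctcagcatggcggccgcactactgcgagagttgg
Mrpl33: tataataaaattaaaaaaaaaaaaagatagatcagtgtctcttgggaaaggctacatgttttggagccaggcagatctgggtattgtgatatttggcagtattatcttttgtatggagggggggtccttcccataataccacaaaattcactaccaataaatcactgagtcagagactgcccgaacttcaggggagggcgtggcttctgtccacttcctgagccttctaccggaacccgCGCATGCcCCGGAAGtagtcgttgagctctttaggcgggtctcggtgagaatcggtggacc
Mrps18a: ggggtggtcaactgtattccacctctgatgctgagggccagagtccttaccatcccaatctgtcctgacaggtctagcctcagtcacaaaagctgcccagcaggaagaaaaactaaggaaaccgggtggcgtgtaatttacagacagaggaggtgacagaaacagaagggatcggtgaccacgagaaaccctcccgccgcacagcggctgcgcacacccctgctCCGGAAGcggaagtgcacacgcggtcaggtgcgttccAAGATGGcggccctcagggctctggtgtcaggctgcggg

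Counted from the start of the gene, the ETS and NRF1 matches begin at -53 and -32 in Mrpl22, at -3 and -11 in Mrpl33, and at -237 and -10 in Mrpl17. Their peaks did not change together: Mrpl17 had 43.9 and 42.9 CPM in control and 45.1 and 43.6 in knockdown, Mrpl22 29.9 and 32.6 against 32.8 and 36.5, and Mrpl33 29.9 and 27.5 against 25.5 and 27.2. None was called (limma adjusted p of 0.888, 0.385 and 0.522). Mrpl22 values were separate upward, Mrpl33 values separate downward and Mrpl17 values overlapped. These 3 were chosen by their sequence. Of the named members with larger rises, Mrps31, Mrpl46 and Mrps2 hold none of the NRF1, ETS and YY1 motifs in their windows. Mrpl35 holds YY1, Mrpl27 and Mrps18c hold ETS, and Mrpl13 and Mrpl19 had no window. A link between motif and change was not tested.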

How the data were processed

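CUT&RUN for H3K4-marked chromatin was sequenced from 5 samples: 2 control, 2 Kdm5b knockdown and 1 negative control. The deposited values are CPM per peak. Reads were trimmed with Trim Galore and GRCm39 is the build, per the submitters' processing notes. Aligner, peak caller and peak-to-gene rule are not given in the sources used here, and peak merging is unstated. The deposited CPM file has 2 emptied lines, and 100% of the values were whole multiples of 1 read (tolerance 1e-06), so reads were recovered for edgeR and DESeq2 as alternatives only. Column numbers differ from those in the titles, so columns were assigned to groups and not to single samples.

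Peaks with at least 1 CPM in 2 of the 4 H3K4 libraries (58072 of 85275) were fitted with limma 3.58.1 (R 4.3.3, trend on mean level, two-sided) on log2(CPM + 1), with Benjamini-Hochberg adjustment over all of them; this pseudocount understates the change of low peaks. Ratios to the negative control used the mean CPM of a group, with no test, and a count of 0 there would allow up to 0.793 CPM (3 reads). Exact 95% Poisson intervals and this limit cover counting error only. CPM per kb divided by peak width. Alternatives changed the pseudocount, the filter, the scaling, the tool (edgeR 4.0.16, DESeq2 1.42.0), the peak choice and the libraries. The fit was tested on simulated data.

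Named genes were those past the threshold, the 5 highest and lowest by level, ratio and fold change, those beside the 1 CPM rule, and a list of genes named whatever their values; Mrpl17, Mrpl22, Mrpl32, Mrpl33, Mrpl42 and others named for sequence or density were chosen after their values were seen. The members, the lists and the tests were chosen with earlier results of these data known.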

Additional observations from a re-analysis of the deposited data

How the results depend on the processing

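Over the 28 genes named by rule and their alternatives, 533 gene results kept their direction and side of the threshold, 12 moved past it, 35 fell short of it and 19 changed sign, none of the 19 called before or after. Mrpl41 became 0.077 (TMM), 0.084 (edgeR, TMM), 0.21 (median centring) and 0.19 (DESeq2), and Mrps36 became 0.011, 0.013, 0.14 and 0.12 in the same settings. Mrps6 became -0.011 with loess and Mrpl23 0.023 with median centring. Without 1 library Mrpl41 ranged from -0.093 to 0.033 (positive without control 4 or knockdown 3), Mrpl12 from -0.043 (without knockdown 4) to 0.17, Mrpl58 from -0.032 (without control 3) to 0.16, Mrps30 from -0.028 (without control 3) to 0.19 and Mrps27 from -0.020 (without knockdown 3) to 0.12. With gene sums Mrps27, Mrpl3 and Mrps12 became -0.055, -0.016 and -0.0013. The count of genes called higher was 4 with library totals. It was 0 with TMM, median centring, limma without a trend, edgeR with TMM and DESeq2, 2 at a threshold of 0.01 and 2 for sums over all peaks of a gene. Without 1 library it ranged from 1 to 4, being 1 without control 3 or knockdown 4. Called lower were 0, and 1 at a threshold of 0.1. For all peaks, 773 were called higher and 947 lower; these counts became 55 and 34 (TMM), 28 and 3 (median centring), 51 and 38 (edgeR, TMM), 16 and 3 (DESeq2), 478 and 13 (peaks 2-fold above the negative control), 351 and 355 (threshold 0.01), 1586 lower (threshold 0.1), and 0 and 0 without the trend, where 8226 peaks had an unadjusted p under 0.05. Without 1 library they ranged from 155 to 371 higher and from 185 to 476 lower.

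The median log2 fold change, 0.10, was 0.20 with TMM, 0.056 with quantile normalization, 0.34 with median centring, 0.079 with loess, 0.12 among peaks 2-fold above the negative control, 0.21 with edgeR and TMM, 0.32 with DESeq2 and 0.081 for gene sums, and ranged from 0.058 to 0.14 without 1 library. The other genes of mitochondrial translation, with 1 call, had 2 with a filter of 5 CPM and at a threshold of 0.1, and 0 with TMM, median centring, no trend, peaks 2-fold above the negative control, edgeR with TMM, DESeq2, a threshold of 0.01, gene sums, and without any 1 library. The 13 genes at least 2-fold above the negative control became 8 with a pseudocount of 5 CPM, 54 with TMM, 6 for gene sums, 47 at 1.5-fold and 0 at 3-fold, and ranged from 13 to 20 without a control library (20 without control 3). The median log2 ratio became 0.72, 2.06 and 0.61 in the first 3 of these. For gene sums the large less small subunit difference was 0.27 in ratio and -0.0052 in level. The cause of these differences was not tested.

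Columns 3 and 4 of the groups share only a number: same-numbered deviations correlated at 0.118 over tested peaks. With the replicate block 8 members were called higher and 1 lower, 6 other translation genes higher, and 1578 peaks higher and 2275 lower. Depth limits the negative control most, with 3784381 reads. The 6 weak genes rest on few reads and cannot show small differences.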
